A study of Mus musculus with 2 samples.

Results

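The Chd genes encode the chromodomain helicase DNA-binding proteins, a family of chromatin remodelers, and their RNAs were followed here in RNA that co-purified with chromatin. The family was taken as the 8 gene symbols Chd1, Chd2, Chd3, Chd4, Chd6, Chd7, Chd8 and Chd9, out of 24117 gene symbols, with all 37 of their listed transcripts out of 48876. These genes were chosen by measured values, namely the high ratio of Chd7 between the same libraries that are described here. The read counts of all members are therefore given as a description, with no test, and none of them is independent evidence for the choice.

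The RNA came from Ba/F3, a mouse hematopoietic cell line that the labels assign to strain C3H, in a procedure called enChIP-RNA-Seq. In this procedure, a tagged DNA-binding protein is expressed in cells, the chromatin is crosslinked with formaldehyde and fragmented by sonication, and the RNA that comes down with the tag is sequenced. One line stably expressed 3xFN-Tel-TAL, in which a TAL protein that recognizes an array of the telomeric repeat TTAGGG carries a 3xFLAG tag and a nuclear localization signal. The control line stably expressed 3xFNLDD, a LexA protein with the 3xFLAG tag. Reads of the 3xFNLDD library are called control reads below, and those of the 3xFN-Tel-TAL library Tel-TAL reads. Both immunoprecipitations used the anti-FLAG M2 antibody, and both libraries were made from 60 ng of RNA. The question of the comparison was which RNAs were more abundant in the isolate of the telomere-binding protein than in that of the control protein. There was 1 library for each construct, so that no difference has a replicate check, and the construct, the cell line made with it and the library cannot be told apart. RNA of the same lines from before the immunoprecipitation was not analysed here. More Chd7 RNA on the captured chromatin and more Chd7 RNA in the cells of that line can therefore not be told apart either.

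A Chd protein carries chromodomains in front of an SNF2-type ATPase that uses ATP to slide or evict nucleosomes. Chd1 and Chd2 act in transcribed genes. Chd3 and Chd4 are the alternative ATPases of NuRD, a complex that joins nucleosome remodeling with histone deacetylation. Chd6, Chd7, Chd8 and Chd9 form the subfamily with BRK domains. Chd7 binds enhancers, and loss of one copy causes CHARGE syndrome in humans. In hematopoietic cells, Chd4 is known for its part in lineage decisions together with Ikaros.

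Because Chd7 is set against its paralogs below, the first point is whether a read can be assigned to one gene of the family. The most-read Chd7 transcript, Chd7-201 (ENSMUST00000039267), is 9444 bases long. None of its 9395 stretches of 50 bases occurred in a coding transcript of another gene in the GENCODE M1 annotation. Within the coding sequences, the longest exact stretch that Chd7 shared with another member was 23 bases, found with Chd6, Chd8 and Chd9 alike. It was 19 bases with Chd3, 17 bases with Chd4 and 14 bases with Chd1 and with Chd2. The 3 stretches of 23 bases are shown because they mark where the coding sequences come closest. They lie in the conserved ATPase part, and the shared bases are in capitals, with 20 flanking bases on each side in lower case, 5′ to 3′ on the coding strand (annotation on build NCBIM37).
Chd7, stretch shared with Chd6: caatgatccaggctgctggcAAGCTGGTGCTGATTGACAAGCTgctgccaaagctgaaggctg
Chd6, same stretch: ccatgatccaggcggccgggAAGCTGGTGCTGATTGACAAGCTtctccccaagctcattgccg
Chd7, stretch shared with Chd8: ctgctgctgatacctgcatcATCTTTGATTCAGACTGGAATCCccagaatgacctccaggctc
Chd8, same stretch: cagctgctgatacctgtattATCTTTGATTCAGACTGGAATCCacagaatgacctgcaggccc
Chd7, stretch shared with Chd9: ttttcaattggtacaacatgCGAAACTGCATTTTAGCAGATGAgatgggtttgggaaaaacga
Chd9, same stretch: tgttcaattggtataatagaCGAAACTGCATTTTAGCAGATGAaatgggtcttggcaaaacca
The stretch shared with Chd9 runs into the start of the ATP-binding motif of the ATPase, which continues in the lower-case letters on its right. In the Chd7 gene, the shared stretches lie in exon 16 (with Chd6, chr4:8765790-8765812), exon 17 (with Chd8, chr4:8766729-8766751) and exon 12 (with Chd9, chr4:8754032-8754054) of Chd7-201, all on the forward strand. Their counterparts lie in exon 16 of Chd6 (chr2:160838854-160838876, reverse strand), exon 17 of Chd8 (chr14:52835574-52835596, reverse strand) and exon 13 of Chd9 (chr8:93513330-93513352, forward strand).

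Outside the family, copies were sought in the genome by BLAST at 90% identity over at least 100 bases. Chd6 was the member with such a copy, a stretch of 1313 aligned bases with 92.7% identity at chr8:36115176-36116437, so some Chd6 reads could belong to either place. For the coding sequences of the other 7 members, Chd7 included, no such stretch was found. Chd3 shared 286 of its 7130 stretches of 50 bases (4.01%) with Gm17305, a gene annotated on the opposite strand of the same locus. The library kit does not mark strand, so reads in this overlap cannot be told apart, but Gm17305 itself had 3 control reads and 2 Tel-TAL reads.

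Summed over all listed transcripts of the gene, Chd7 had 25 control reads and 579 Tel-TAL reads. On the reads-per-million scale (RPM), in which a count is divided by the total of its library, its level was 3.47 in the control and 59.2 with Tel-TAL, a ratio of 17.1 and a log2 ratio of 4.09. The 95% interval of the log2 ratio was 3.52 to 4.73. This interval, like the others below, was obtained by the exact Clopper-Pearson method from the split of the reads over the libraries. It covers counting error only and compares these libraries, not the conditions, since reads from PCR without molecular identifiers are not independent molecules. Even counts were more frequent than odd counts in both libraries, making up 61.6% and 56.1% of the counts from 1 to 20. For this reason, intervals were also computed on halved counts, a choice made after seeing the data, and that of Chd7 was then 3.24 to 4.97. Among the 5933 genes with 100 or more reads over the 2 libraries, none had a higher ratio than Chd7. In contrast, 8 genes with between 20 and 27 reads did. At so few reads, a ratio above that of Chd7 leaves almost no control reads. A gene without any was counted as higher, although its ratio has no finite value. Since Chd7 was chosen by this ratio and passed the minimum of 100 mainly through its Tel-TAL reads, the rank is a description only.

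**Figure D1:**
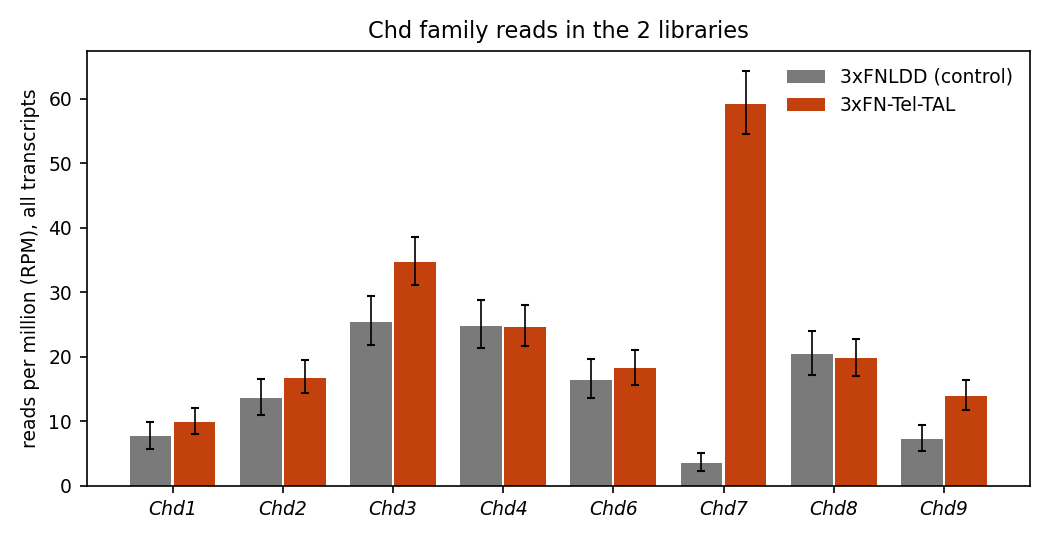
Level of each Chd gene in the 2 libraries as RPM summed over its transcripts, with gray bars for 3xFNLDD, orange bars for 3xFN-Tel-TAL and error bars for the exact 95% Poisson interval of the count (counting error only). Chd7 went from 3.47 RPM to 59.2 RPM, while Chd4 had 24.8 RPM and 24.7 RPM.

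The 7 paralogs together had 832 control reads and 1348 Tel-TAL reads, for a log2 ratio of 0.26 (95% interval 0.13 to 0.38). Their single log2 ratios ran from -0.05 for Chd8 to 0.95 for Chd9, with a median of 0.30. With Chd7 included the median of the 8 genes was 0.34, and that of all 12517 genes with at least 20 reads was 0.37. All 8 members passed this minimum. The study set 1.4-fold on the ratio of read counts, to list non-coding RNAs. Here 1.4 was set on the ratio of RPM, for all genes. The Tel-TAL library was the larger one, so ratios of read counts are higher, and more members pass 1.4 by them. By RPM, Chd7 and Chd9 were the 2 members above 1.4, compared with 41.1% of all 12517 genes. Below 1/1.4 were 0 of 8 members, compared with 11.5% of all genes. When the lower bound of the interval had to exceed 1.4, 1 member was called, Chd7, against 10.1% of all genes. Apart from Chd7, the family therefore had no larger share of genes above 1.4-fold than the rest of the table.

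The scaling of the libraries sets the zero of these ratios. TMM scaling, the trimmed mean of M values in edgeR, shifted every log2 ratio by -0.37, and totals without the 11 transcripts above 1% of either library shifted it by -0.32. With TMM scaling, 20.4% of all genes were above 1.4-fold and 22.4% were below 1/1.4. The log2 ratio of Chd7 was then 3.72 and that of Chd9 was 0.58, and both stayed above 1.4-fold. The other 6 members ran from -0.42 for Chd8 to 0.08 for Chd3 on that scale. The summed paralogs turned from 0.26 to -0.11, so that no direction can be given for them.

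**Figure D2:**
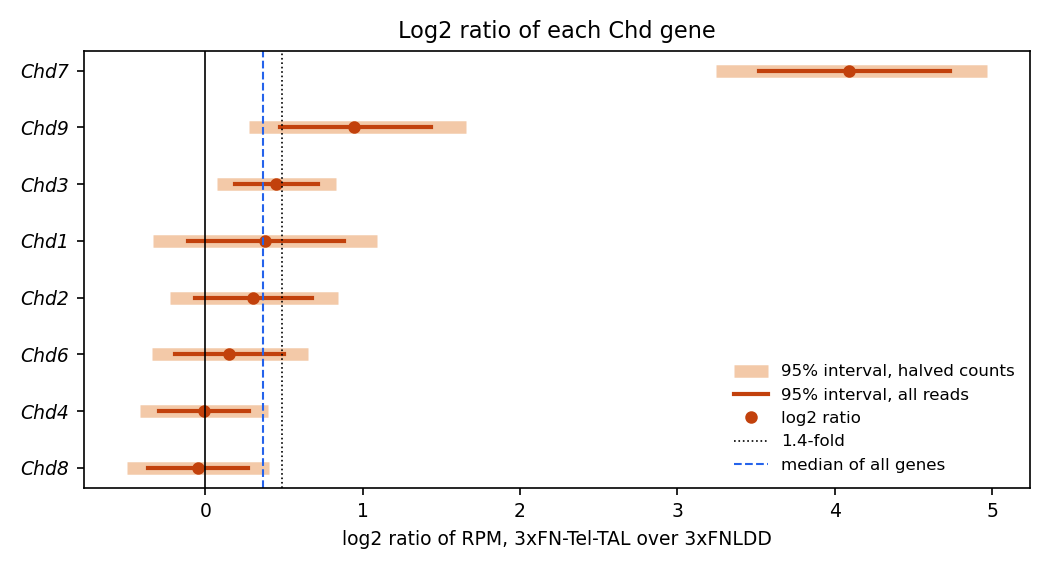
Log2 ratio of RPM (3xFN-Tel-TAL over 3xFNLDD, horizontal axis) for each Chd gene, with the point for the ratio, the thin line for the 95% interval on all reads and the wide band for the 95% interval on halved counts. The dotted line marks a ratio of 1.4 and the dashed line the median of all genes (0.37), and Chd7 at 4.09 lies apart from the other members, which end at 0.95.

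The difference between Chd7 and its paralogs does not depend on the library totals, because scaling moves all genes alike. The log2 ratio of Chd7 minus that of the summed paralogs was 3.84 (95% interval 3.24 to 4.49, on halved counts 2.96 to 4.73), which is a 14.3-fold difference in ratio. Against single paralogs, the difference was least with Chd9, at 3.15 (95% interval 2.37 to 3.95), and greatest with Chd8, at 4.14 (95% interval 3.47 to 4.85). Of all reads of the 8 genes, Chd7 held 2.92% in 3xFNLDD (95% interval 1.90 to 4.28) and 30.0% in 3xFN-Tel-TAL (95% interval 28.0 to 32.1). The share of Chd4 went from 20.9% to 12.5% and that of Chd8 from 17.2% to 10.02%. These shares add up to the same whole, so that the rise of one lowers the others.

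**Figure D3:**
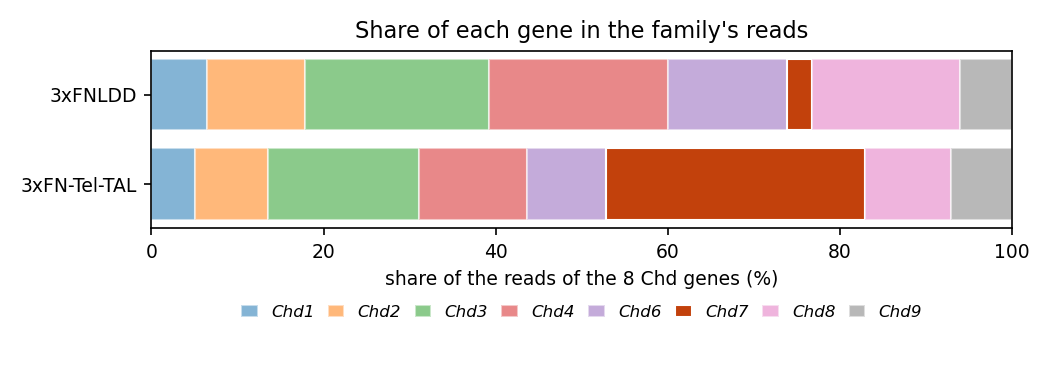
Share of each gene in all reads of the 8 Chd genes (percent, horizontal axis) in 3xFNLDD (upper bar) and 3xFN-Tel-TAL (lower bar). Chd7, in dark orange, held 2.92% of the reads in the control and 30.0% with Tel-TAL.

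To compare levels between genes, the reads of the most-read transcript of each gene were divided by its length, which turns RPM into RPKM (RPM per kilobase of transcript). In 3xFNLDD, the order from high to low was Chd4 (3.38 RPKM), Chd3 (2.34 RPKM), Chd8 (2.17 RPKM), Chd2 (1.34 RPKM), Chd6 (1.21 RPKM), Chd1 (0.947 RPKM), Chd9 (0.627 RPKM) and Chd7 (0.264 RPKM). Neighbours in this order whose exact Poisson intervals overlapped were Chd3 and Chd8, Chd2 and Chd6, Chd6 and Chd1, and Chd1 and Chd9. The interval of Chd7 (0.157 to 0.418 RPKM) lay below that of Chd9 (0.468 to 0.822 RPKM). In 3xFN-Tel-TAL, Chd7 came first with 5.78 RPKM (95% interval 5.30 to 6.30), ahead of Chd4 with 3.15 RPKM (95% interval 2.73 to 3.61). Chd3 (2.24 RPKM) and Chd8 (1.97 RPKM) followed with overlapping intervals. The last were Chd2 (1.39 RPKM), Chd1 (1.23 RPKM), Chd9 (1.15 RPKM) and Chd6 (1.002 RPKM), where each interval overlapped that of its neighbour. By its most-read transcript, Chd7 thus moved from the last place of the family to the first. When RPKM was summed over all annotated transcripts, in which short models weigh more, Chd7 was again last in 3xFNLDD (0.461 RPKM) but stood in 3xFN-Tel-TAL (6.41 RPKM) below Chd3 (14.0 RPKM) and Chd4 (7.92 RPKM) and just above Chd2 (6.36 RPKM). The order of the other genes also depended on this choice.

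Chd7 (ENSMUSG00000041235) lies on the forward strand of chromosome 4 of NCBIM37, chr4:8617553-8794806. The files hold no coordinates, and the positions given here are those of GENCODE M1, whereas the submitters' processing notes name GRCm38. Of the 3 listed transcripts, Chd7-201 has 38 exons and had 18 control reads and 534 Tel-TAL reads, for a log2 ratio of 4.45 (95% interval 3.78 to 5.22). Chd7-001 (ENSMUST00000051558) had 0 reads and 29 reads, for which the lower 95% bound of the log2 ratio was 2.44. Both encode the same protein, since their coding sequences of 8961 bases are identical. They differ before and after the coding part, with 155 bases after it in Chd7-201 and 1004 bases in Chd7-001. The third transcript, the retained-intron model Chd7-005 (ENSMUST00000170457), had 7 control reads and 16 Tel-TAL reads, for a log2 ratio of 0.75 (95% interval -0.61 to 2.28). Of its 4953 bases, 57.0% lie outside the coding models. It held 28.0% of the gene's reads in the control (95% interval 12.1 to 49.4) and 2.76% with Tel-TAL (95% interval 1.59 to 4.45). The Chd7 reads of the 3xFN-Tel-TAL library were therefore mostly assigned to the spliced coding models.

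Chd9, the closest member to Chd7 by ratio and one of its subfamily, lies on chr8:93352734-93578407 (forward strand). It had 52 control reads and 136 Tel-TAL reads (7.22 RPM and 13.9 RPM), for a log2 ratio of 0.95 (95% interval 0.48 to 1.44). On halved counts the interval was 0.28 to 1.66, so that the lower bound lay under 1.4-fold either way. Nearly all of these reads were on Chd9-201 (ENSMUST00000048665), with 52 reads and 130 reads. The other transcript, ENSMUST00000109614, with 0 reads and 6 reads, differs in the coding sequence by 48 bases that extend an exon at chr8:93560450-93560497. These bases are shown in capitals because reads over them are what tells the transcripts apart.
Chd9, extension of the exon in ENSMUST00000109614: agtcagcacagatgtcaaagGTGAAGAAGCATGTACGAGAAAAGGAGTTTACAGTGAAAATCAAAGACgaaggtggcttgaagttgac
At 0 against 6 reads, the lower 95% bound of the log2 ratio of this transcript was -0.20, so that no direction was resolved at this depth.

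Chd6 and Chd8 complete the subfamily of Chd7. Chd6, a DNA-stimulated ATPase (chr2:160772714-160934811, reverse strand), had 118 control reads and 178 Tel-TAL reads, for a log2 ratio of 0.15 (95% interval -0.19 to 0.50). Its coding model Chd6-003 had 92 reads and 103 reads (log2 ratio -0.28), while the retained-intron model Chd6-002 had 22 reads and 58 reads (0.96, 95% interval 0.23 to 1.74). The remaining transcripts of Chd6, both retained introns, had 4 reads and 15 reads (1.47, 95% interval -0.18 to 3.52) and 0 reads and 2 reads. The share of Chd6-003 in the gene's reads was 78.0% in the control and 57.9% with Tel-TAL. Chd8, which binds CTCF and beta-catenin and is a major autism risk gene in humans, lies on chr14:52817826-52857466 (reverse strand). It had 147 reads and 193 reads, for a log2 ratio of -0.05 (95% interval -0.36 to 0.27). The most-read transcript of Chd8, Chd8-001, had 128 reads and 158 reads, and the other 7 listed transcripts had at most 9 reads in the control and 19 with Tel-TAL. Neither gene had a ratio whose interval lay above 0, in contrast to Chd7 and Chd9.

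Of the NuRD ATPases, Chd4 (chr6:125045999-125080609, forward strand) had 179 control reads and 241 Tel-TAL reads, for a log2 ratio of -0.01 (95% interval -0.30 to 0.28). Its main transcript Chd4-001 had 163 reads and 206 reads. The short processed transcript Chd4-007 had 2 reads and 12 reads, a ratio of 4.42 whose log2 interval was -0.02 to 5.35. The other 5 transcripts of Chd4 had at most 10 reads in the control and 13 with Tel-TAL. Chd3 (chr11:69156775-69182928, reverse strand) had 183 reads and 339 reads, for a log2 ratio of 0.45 (95% interval 0.19 to 0.72), the third highest of the family.

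The 5 transcripts of Chd3 had unlike ratios. Chd3-201 (ENSMUST00000092971) had 121 control reads and 157 Tel-TAL reads, for a log2 ratio of -0.06 (95% interval -0.42 to 0.29). Chd3-001 (ENSMUST00000108661) had 34 reads and 85 reads, for a log2 ratio of 0.88 (95% interval 0.29 to 1.50). The 2 processed transcripts, in which 64.5% and 20.5% of the bases lie outside the coding models, were higher still. Chd3-008 had 18 reads and 60 reads (1.30, 95% interval 0.52 to 2.14), and Chd3-003 had 6 reads and 35 reads (2.10, 95% interval 0.84 to 3.64). Chd3-005 had 4 reads and 2 reads. The share of Chd3-201 in the gene's reads was 66.1% in the control (95% interval 58.8 to 72.9) and 46.3% with Tel-TAL (95% interval 40.9 to 51.8). Chd3-001 differs from Chd3-201 in the coding sequence by 1 more exon of 102 bases, chr11:69162212-69162313, which is shown in capitals with its flanks in lower case on the coding strand.
Chd3-001, additional exon: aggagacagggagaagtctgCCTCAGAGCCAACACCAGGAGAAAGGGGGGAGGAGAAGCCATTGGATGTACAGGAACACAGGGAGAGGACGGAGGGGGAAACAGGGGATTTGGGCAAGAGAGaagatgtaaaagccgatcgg
The coding sequences are otherwise the same, so reads elsewhere in them belong to both models, and how the authors split such reads is not given in the sources used here.

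Chd1 and Chd2 had ratios near the median of all genes. Chd1, which binds methylated histone H3 at transcribed genes (chr17:15841931-15909574, forward strand), had 55 control reads and 97 Tel-TAL reads, for a log2 ratio of 0.38 (95% interval -0.11 to 0.88). All but 1 of the control reads and 2 of the Tel-TAL reads of Chd1 were on Chd1-001 (54 reads and 95 reads). Chd2, whose loss causes an epileptic encephalopathy in humans (chr7:80571577-80686632, reverse strand), had 98 reads and 164 reads, for a log2 ratio of 0.30 (95% interval -0.07 to 0.68). The main transcript Chd2-001 had 87 reads and 123 reads (log2 ratio 0.06). The other 4 transcripts of Chd2 had between 0 and 7 reads in the control and between 5 and 18 with Tel-TAL. One of them, ENSMUST00000181971 with 0 reads and 7 reads, has no model in the annotation.

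Of the 37 member transcripts, 20 are protein-coding models, 10 retained introns and 6 processed transcripts without a reading frame. Of these 37, 9 had no read in 3xFNLDD and 2 had no read in 3xFN-Tel-TAL. Among all 48876 listed transcripts, 39739 had a read in 3xFNLDD and 40068 had one in 3xFN-Tel-TAL. Of the member transcripts, 17 had 20 or more reads over the 2 libraries. Above 1.4-fold were 10 of the 17, compared with 44.2% of all 16468 such transcripts, and 0 were below 1/1.4, compared with 11.1%. Among the 11 coding models with enough reads, 4 were above 1.4-fold, against 44.9% of the coding transcripts of all genes. All 6 non-coding models with enough reads were above 1.4-fold, against 45.6% of the non-coding transcripts of all genes. A transcript with few reads in the control passes the minimum mainly through the 3xFN-Tel-TAL library, so these counts are no more than a description.

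This pattern was noticed after the values were seen, and the reads were then summed by class within each gene. The classes share exon sequence. Of the bases of a non-coding model, between 12.1% (Chd6-005) and 82.4% (Chd6-002) lie outside the coding models. How shared reads were split between models is not given in the sources used here. The intervals below do not cover that split. For the 7 paralogs, the coding models had 753 control reads and 1101 Tel-TAL reads, for a log2 ratio of 0.11 (95% interval -0.03 to 0.24). The non-coding models had 79 reads and 240 reads, for a log2 ratio of 1.16 (95% interval 0.79 to 1.55). The difference, coding minus non-coding, was -1.06 (95% interval -1.46 to -0.66, on halved counts -1.63 to -0.47). In Chd7 the difference had the opposite sign, with 18 and 563 reads on the coding models (log2 ratio 4.53) and 7 and 16 reads on the non-coding model (0.75), which gives 3.77 (95% interval 2.06 to 5.34). By gene, the difference was -1.37 in Chd3, -1.37 in Chd6, -1.82 in Chd4, -0.75 in Chd2 and -0.62 in Chd8. The intervals of Chd2 (-2.31 to 0.65) and Chd8 (-1.60 to 0.33) held 0, and on halved counts that of Chd4 did as well (-5.10 to 0.51). No non-coding model of Chd1 or Chd9 was listed. Below 0 were 5 of the 6 members with enough reads in both classes, against 52.6% of all 2114 such genes, whose median difference was -0.05 with quartiles of -0.64 and 0.50. Of these 2114 genes, 1 had a higher difference than Chd7. Chd7 was chosen by its gene ratio, and 563 of its 579 Tel-TAL reads were on the coding models. Its place among these genes therefore largely restates the choice. The minimum of 20 reads acts here too, since a non-coding class with few control reads, such as that of Chd4 (4 and 18 reads) or Chd2 (7 and 18 reads), passed it through the Tel-TAL library, which favours a difference below 0. The count of 5 of 6 is therefore no support for a difference between the classes.

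**Figure D4:**
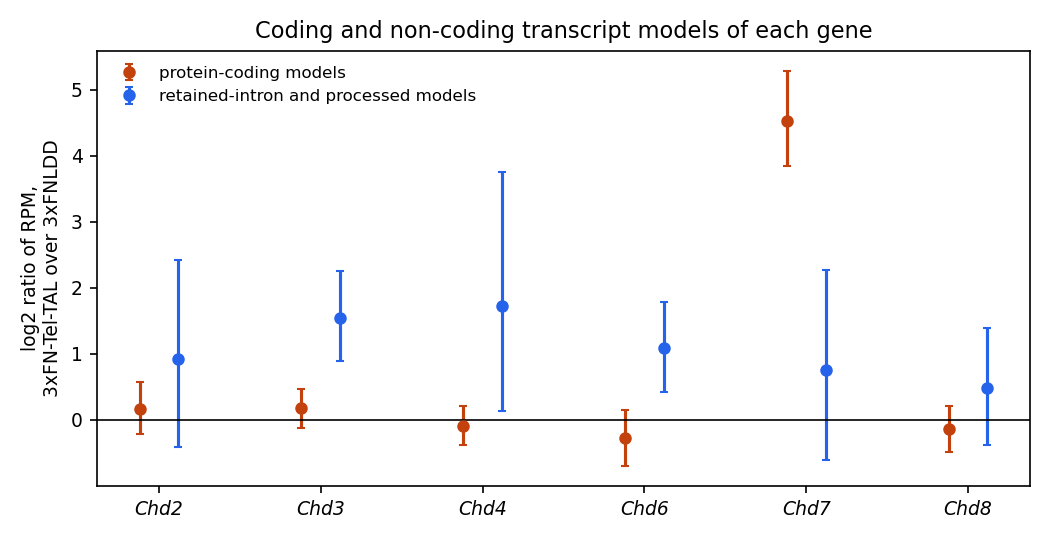
Log2 ratio of RPM (3xFN-Tel-TAL over 3xFNLDD, vertical axis) of the protein-coding models (orange) and the retained-intron and processed models (blue) of the 6 Chd genes that have at least 20 reads on non-coding models, with 95% intervals (counting error only). In Chd7 the coding models lie above at 4.53 against 0.75, and in the other 5 genes the non-coding models lie above.

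The small RNA SCARNA21 lies within the span of Chd3 on the same strand. It had 76 control reads and 135 Tel-TAL reads, for a log2 ratio of 0.39 (95% interval -0.03 to 0.81). Chd3 itself had 0.45. The other small RNAs inside members had too few reads for a ratio, with 0 and 2 reads for SCARNA11 in Chd4 and 0 and 4 reads for Snord8 in Chd8.

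The genes next to Chd7 on chromosome 4 were also examined. On its near side Rab2a, a small GTPase of the secretory pathway whose end is 82.6 kb before Chd7, had 6 control reads and 19 Tel-TAL reads, for a log2 ratio of 1.22 (95% interval -0.16 to 2.84). Car8 had 17 reads and 29 reads (0.33), and Tox had 9 reads and 4 reads. On the far side, Clvs1 had 31 reads in each library (-0.44), Asph had 170 reads and 274 reads (0.25, 95% interval -0.03 to 0.53), and Gdf6 had 0 reads and 4 reads. Of the 4 with 20 or more reads, Rab2a had the highest ratio, and the upper bound of its interval lay below the lower bound of Chd7. Over the 48 neighbours of all members, 32 had at least 20 reads, of which 10 were above 1.4-fold and 4 were below 1/1.4, beside 41.1% and 11.5% of all genes, with a median of 0.25. The highest of these 32 was 2.22, for BC002059 beside Chd1 (3 reads and 19 reads, 95% interval 0.46 to 4.62).

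Since the TAL protein recognizes telomeric repeats, the spans of the members were searched for TTAGGG and CCCTAA. No member held 2 of these in a row on NCBIM37. Single copies numbered 71 in the span of Chd7, or 40.1 per 100 kb, compared with 40.0 per 100 kb over all 22371 protein-coding genes. A single copy was found in 84.8% of all genes. Among the members the density ran from 27.7 per 100 kb in Chd8 to 69.3 per 100 kb in Chd4, so that Chd7 was not at either end. A match is a description of the letters and no sign that the protein bound there.

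The 5 genes with at least 100 reads whose log2 ratio was nearest to that of Chd7 over the 2 libraries all lay well below it. They were Tsnax, which encodes the translin-associated factor X (12 reads and 110 reads, log2 ratio 2.76), the scaRNA Scarna6 (40 and 312 reads, 2.52), the apoptosis gene Bak1 (12 and 88 reads, 2.43), the lysosomal sulfatase Arsb (13 and 93 reads, 2.40) and the snoRNA Snord17 (215 and 1512 reads, 2.37). The distance to Chd7 was 1.34 for Tsnax and 1.72 for Snord17. As Chd7 was chosen by this ratio, the distances are a description only.

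Genes linked to Chd proteins, or carrying the same kind of ATPase, were counted from lists drawn up from general knowledge. The membership of single genes was not checked here. Of the 12 NuRD subunits, 8 were above 1.4-fold, beside 41.1% of all genes, and 0 below 1/1.4, beside 11.5%. Their median log2 ratio was 0.66, beside 0.37 for all genes. The histone deacetylase Hdac2 had the highest value (8 control reads and 33 Tel-TAL reads, 1.60, 95% interval 0.46 to 2.93), and the subunit Mta1 the lowest (98 and 113 reads, -0.23). A list headed Chd8 and Chd7 partners held the 6 genes Wdr5, Ash2l, Rbbp5, Ctcf, Adnp and Pogz, not all of which are established partners of these 2 proteins. Of the 6, 4 were above 1.4-fold, with a median of 0.60. Rbbp5, a subunit of histone methyltransferase complexes, had the highest value (33 and 107 reads, 1.26, 95% interval 0.68 to 1.87), and the zinc finger gene Pogz the lowest (121 and 149 reads, -0.14). With TMM scaling, 5 NuRD subunits were above 1.4-fold and 1 was below 1/1.4. Of the 6 genes of the second list, 2 were above and 1 below. Among all genes, 20.4% were above and 22.4% below. The medians were then 0.29 and 0.23.

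The remaining lists hold other remodelers. Their counts stand beside 41.1% of all genes above 1.4-fold and 11.5% below 1/1.4. Of the 9 genes of ISWI remodelers and partners, 8 had enough reads and 2 of them were above 1.4-fold, with a median of 0.39, Baz2a highest (139 and 313 reads, 0.73) and the ATPase Smarca5 lowest (90 and 123 reads, 0.01). In the INO80 and SRCAP family of 7 genes, 6 had enough reads, of which 1 was above and 1 below, with a median of 0.09, the ATPase Srcap highest (287 and 638 reads, 0.71) and Actr5 lowest (37 and 34 reads, -0.56). Among 14 other SNF2-type ATPases, 3 were above and 0 below, with a median of 0.28, Rad54l2 highest (76 and 229 reads, 1.15) and Ercc6l lowest (78 and 79 reads, -0.42). With TMM scaling these 3 medians were 0.02, -0.28 and -0.09, so that the direction of the INO80 and SRCAP family and of the other SNF2-type ATPases turned and the ISWI median came close to 0. On that scale, the numbers of genes above 1.4-fold in these lists were 0, 0 and 2, beside 20.4% of all genes. Below 1/1.4 were 0, 2 and 3, beside 22.4% of all genes. Chd1l, an ATPase without chromodomains, had 24 reads and 29 reads (-0.17). Chd5, the remaining Chd gene, had 48 reads and 67 reads (0.04, 95% interval -0.51 to 0.61). Over the 5 lists, the 46 genes with enough reads ran from -0.56 to 1.60, and Chd7, which was chosen by its ratio, lay outside this range. The remaining 2 listed genes were Smarca1 with 2 reads and 0 reads, and Actr8 with 1 read and 15 reads, a ratio of 11.1 whose log2 interval ran from 0.77 to 8.86.

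**Figure D5:**
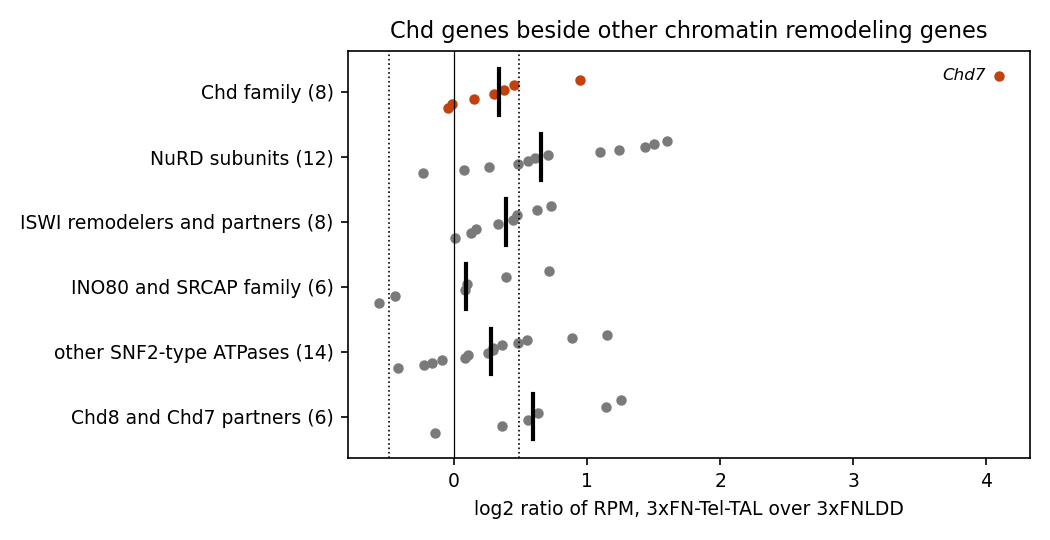
Log2 ratio of RPM (3xFN-Tel-TAL over 3xFNLDD, horizontal axis) of the 8 Chd genes (orange) and of the genes of 5 remodeler lists with at least 20 reads (gray), with a vertical bar at each median and dotted lines at 1.4-fold in either direction. The listed genes end at 1.60, and Chd7 stands at 4.09.

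In total, the control library held 7206183 reads and the Tel-TAL library 9774844, at which 3 reads correspond to 0.416 RPM and 0.307 RPM. Of 12 markers of Ba/F3 cells, 11 were listed (all but Rag1), and their summed level was 200.7 RPM and 213.9 RPM. Most of it came from the IL-3 receptor subunits Csf2rb (583 and 1052 reads) and Csf2rb2 (751 and 849 reads). The receptor subunit Il3ra had 17 reads and 68 reads (log2 ratio 1.56, 95% interval 0.78 to 2.42). It was the 1 of the 6 Ba/F3 markers with 20 or more reads above 1.4-fold, and 0 were below 1/1.4, beside 41.1% and 11.5% of all genes. The median of these 6 was 0.18. Ptprc had 44 reads and 67 reads, and Kit had 2 reads in each library. Of the B-lineage markers, Pax5 had 30 reads and 31 reads and Ebf1 had 9 reads and 14 reads, whereas Cd79a, Cd79b, Igll1 and Vpreb1 had between 0 and 4 reads in each library. The 11 listed markers of other cell types had a summed level of 21.5 RPM and 23.8 RPM. Of this, Mbp (77 and 185 reads) made up 10.7 RPM in the control and 18.9 RPM with Tel-TAL. Of the 4 with 20 or more reads, 1 was above 1.4-fold (Mbp) and 2 were below 1/1.4, beside 41.1% and 11.5% of all genes. The median of the 4 was -0.46, and the erythroid Hba-a1 was lowest (22 and 9 reads, -1.73, 95% interval -3.03 to -0.55). Myh6 had 8 reads and 0 reads, and Krt5 had 5 reads and 0 reads. Their part in the value of Chd7 was not tested.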

How the data were processed

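The authors deposited, for each of 2 libraries, a read count per Ensembl transcript and the RPM made from it, and recomputing RPM from the counts gave the same values within 4.75e-05. The submitters' processing notes name cutadapt, GRCm38 and mm10, and the counting program is not given in the sources used here. The RNA was treated with DNase I, per the study's methods, and the library kit named in the labels does not mark strand. The files list transcripts with at least 1 read in a library, and reads were summed by gene symbol. Ratios of RPM were computed with exact 95% intervals in Python 3.11.15 with scipy 1.17.1. TMM factors came from edgeR 4.0.16 (transcripts with at least 10 reads), and genes needed at least 20 reads for counts over all genes. GENCODE M1 (NCBIM37) gave models for 45887 of 48876 transcripts, and copies were sought with BLAST. The computation was tested on simulated data. With 1 library per construct there is no p-value. The members, the lists and the rule for named genes (all members, the highest and lowest gene of each list, the 5 nearest genes and the neighbours of Chd7) were chosen with earlier results of these data known. Protein identity between members was not analysed here.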

Additional observations from a re-analysis of the deposited data

How the results depend on the processing

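No paired analysis was possible because each construct had 1 library, which also means that no fit without a replicate could be made. The number of members above 1.4-fold, 2 by library totals, was 1 with a threshold of 2, with the lower 95% bound past 1.4-fold, with that bound on halved counts, and without Chd7. The halved counts and the omission of Chd7 were chosen after seeing the data. These changes follow from how the alternatives are built, since they ask more of Chd9 or leave out Chd7. The count was unchanged by TMM scaling. TMM scaling took the median log2 ratio of the 8 members from 0.34 to -0.03 and that of all genes from 0.37 to -0.0013, because it shifts all genes alike. In place of the coding and non-coding classes, the most-read transcript was set against all others, which include coding models such as Chd7-001 and Chd3-001. The difference was then 2.21 in Chd7 and -0.998 in the summed paralogs. Of 47 alternative values of single genes, 33 lay within the 95% interval of the main value, as did 44 of 48 for transcripts. None of the values past 1.4-fold changed sign, which among the genes concerns only Chd7 and Chd9. Signs of other genes did change. With TMM scaling, Chd2 went from 0.30 to -0.07 and Chd6 from 0.15 to -0.22. By its most-read transcript, Chd3 went from 0.45 to -0.06. Without its most-read transcript the log2 ratio of Chd7 was 2.24, from 52 reads in all. Depth left the transcripts under 20 reads, which are 20 of the 37, without a resolved ratio, with 1 exception. This was ENSMUST00000181971 of Chd2 (0 and 7 reads), whose lower 95% bound of the log2 ratio was 0.09.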
